A study of Homo sapiens with 5 samples.

Results

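The histone demethylases examined here are 10 genes of the Jumonji C (JmjC) family, KDM2A, KDM2B, KDM3A, KDM3B, KDM4A, KDM4B, KDM4C, KDM5A, KDM5B and KDM6B. They were chosen by name, with earlier results of these data known, and all 10 were found once each among the 64837 entries of the count tables. The tables hold RNA-Seq of NCI-H209, an established human small-cell lung cancer (SCLC) cell line that grows with neuroendocrine features. The control group is 3 libraries of untreated NCI-H209 cells. The co-cultured group is 2 libraries of the same cells after 24 h with human brain microvascular endothelial cells (HBMECs), which were separated from them by the membrane of a Transwell chamber and shared their medium. No group carries a genetic change made by the study, so the model is 1 cell line and 1 time point. The question is which of these enzymes the tumor cells expressed differently beside endothelial cells of the brain.

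JmjC demethylases remove methyl groups from lysines of histone tails in a reaction that consumes molecular oxygen and 2-oxoglutarate and uses iron, and this makes them a link between oxygen, metabolism and chromatin. KDM3 and KDM4 enzymes act on lysine 9 of histone H3 (H3K9), a mark of silenced chromatin, and KDM4 enzymes on H3K36 as well. KDM5 enzymes act on H3K4, the mark of active promoters. KDM2 enzymes act on H3K36, and KDM6B acts on H3K27 methylation, the mark that Polycomb complexes write. Several of these genes, KDM3A and KDM4B among the best known, are also targets of hypoxia-inducible factors (HIFs), the transcription factors that accumulate when oxygen is low.

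The counts on genes ran from 15457071 to 19157348 per library. Between 8.13% and 8.48% of reads were unmapped in control, against 16.8% and 15.9% in co-cultured replicates 1 and 2, a difference whose part in the results below was not tested. Of 10 neuroendocrine markers 9 were well expressed, among them SYP, a protein of synaptic vesicles, at 59.5 ± 4.99 CPM (SD, n = 3) in control and 88.2 CPM on average in co-cultured cells. The exception was CHGA, with 0 counts in every library except 1 count in co-cultured replicate 1. Of the 9 tested, 4 were higher and 1 lower in co-cultured cells. Of 15 endothelial markers, 9 were tested and only ESAM was higher, with 3, 4 and 6 counts in the control libraries against 21 and 14 after co-culture. None of the 9 was called lower, and their median log2 fold change was -0.09. FLT1, KDR and TEK had 30, 37 and 31 counts in control replicate 1, and 28, 27 and 24 in control replicate 2. In control replicate 3 they had 0, 2 and 0. After co-culture they had 1, 12 and 6 counts in replicate 1, and 1, 4 and 3 in replicate 2. The highest count of any endothelial marker in any library was 159, of VWF, and 4 of the 15 had at most 3 counts in every library. Their summed level was 9.88 to 21.4 CPM in control and 13.2 and 13.6 CPM in co-cultured libraries.

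In co-cultured cells 6 of the 10 demethylases were higher (KDM2A, KDM3A, KDM4A, KDM4B, KDM4C and KDM6B), 1 was lower (KDM3B) and 3 did not pass the test (KDM2B, KDM5A and KDM5B). A gene was called when its adjusted p was under 0.05 by the quasi-likelihood test of edgeR, adjusted after Benjamini and Hochberg for the 20360 genes tested. By that rule 33.4% of all genes were called, 18.4% as higher and 15% as lower. The median log2 fold change (co-cultured over control) of the 10 genes was 0.41, and that of all genes was -0.03. As the 10 genes were chosen with earlier results known, their contrast with all genes is a description only. The groups did not overlap in CPM (counts put on a common depth by TMM scaling) for 9 of the 10, where 59.4% of all genes did not overlap. At the study's criterion for differentially expressed genes (DEGs), taken here as a log2 difference of more than 1 in either direction at an unadjusted p under 0.05, KDM6B alone qualified, as did 10.5% of all genes. At 1.05 it was close to that limit. It was at 0.97 under upper-quartile in place of TMM scaling, 0.92 without control replicate 1 and 0.94 without co-cultured replicate 1. Under the other alternatives it stayed above 1. Added up, the 10 genes stood at 1248, 1326 and 1374 CPM in control and at 1804 and 1545 CPM in co-cultured libraries. These are levels in bulk RNA, in which a change in every cell and a change in the share of cells that express a gene cannot be told apart. Without co-cultured replicate 1, only KDM4C and KDM6B were still called.

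**Figure D1:**
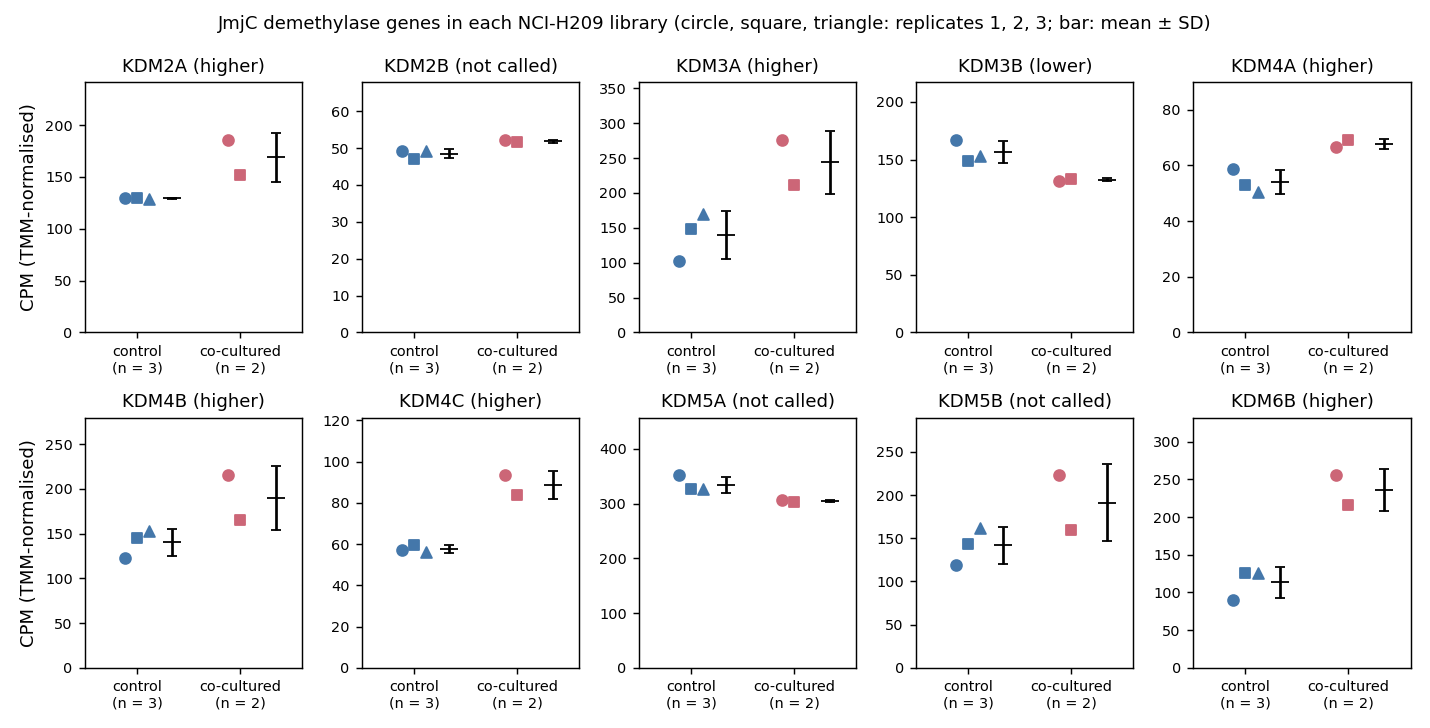
CPM (vertical axes, from 0) of the 10 demethylase genes in each library, with control in blue and co-cultured in red, the symbol giving the replicate and the bar the mean ± SD of 3 control and 2 co-cultured libraries. KDM6B, KDM3A and KDM4C stand clear of their control libraries, and KDM5B is the gene whose groups overlap.

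KDM6B (JMJD3), the demethylase of H3K27me3 that opens Polycomb targets in development and inflammation, showed the largest difference of the 10. Its level was 90.1, 125 and 125 CPM in the control libraries and 255 and 216 CPM in co-cultured replicates 1 and 2. Both co-cultured libraries lay well above every control library, and control replicate 1 was the lowest of the 5. The means were 114 ± 20.3 CPM (SD, n = 3) and 236 ± 27.5 CPM (SD, n = 2), a 2.08-fold difference (log2 fold change 1.05, standard error 0.14, edgeR adjusted p = 0.000705). Of all genes tested, 5.14% had a higher log2 fold change. KDM6B lies on chromosome 17 (GRCh38, chr17:7839904-7854796, plus strand), and under 1% of its reads in any library fell on the opposite strand.

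KDM3A (JMJD1A), which removes mono- and dimethylation of H3K9, was next. It stood at 102, 148 and 169.6 CPM in control and at 276 and 211 CPM in co-cultured libraries. The groups did not overlap, but the spread within control was wide, with replicate 1 far below the other two. The means were 140.0 ± 34.3 CPM (SD, n = 3) and 244 ± 45.5 CPM (SD, n = 2), 1.74-fold apart (log2 fold change 0.80, standard error 0.19, edgeR adjusted p = 0.0105). Without co-cultured replicate 1 the log2 fold change was 0.60 and the call was lost (edgeR adjusted p = 0.137). Its closest relative KDM3B, an enzyme of the same specificity, went the other way. KDM3B stood at 167, 149 and 153 CPM in control and at 132 and 133.5 CPM in co-cultured libraries, all control libraries being higher. Its fall was 0.848-fold (log2 fold change -0.24, standard error 0.08, edgeR adjusted p = 0.0481) and close to the threshold. It was called under 3 of 12 alternative settings, with a log2 fold change between -0.32 and -0.18 in all of them.

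KDM4A, KDM4B and KDM4C, whose products remove trimethylation of H3K9 and H3K36, were all higher in co-cultured cells. KDM4C (JMJD2C) was the steadiest. It stood at 56.9, 59.6 and 56.1 CPM in control and at 93.3 and 83.8 CPM in co-cultured libraries. The control libraries lay within a few CPM of each other and far from both co-cultured ones. The means were 57.5 ± 1.84 CPM (SD, n = 3) and 88.5 ± 6.74 CPM (SD, n = 2), 1.54-fold apart (log2 fold change 0.62, standard error 0.08, edgeR adjusted p = 0.000607). KDM4C and KDM6B were the members called under all 12 alternatives. KDM4B (JMJD2B) stood at 123, 145 and 152 CPM in control and at 215 and 165 CPM in co-cultured libraries. Its groups did not overlap, but co-cultured replicate 2 was nearer to control replicate 3 than to co-cultured replicate 1. The difference was 1.36-fold (log2 fold change 0.44, standard error 0.13, edgeR adjusted p = 0.0262), and without co-cultured replicate 1 it was 0.24 on the log2 scale and not called (edgeR adjusted p = 0.300).

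KDM4A (JMJD2A) needs its strands read apart. On its own strand the control libraries held 1106, 957 and 983 counts and the co-cultured libraries 1216 and 1046. Scaled to CPM these were 58.8, 52.9 and 50.3 against 66.5 and 69.1, with both co-cultured libraries above all controls. The difference was 1.25-fold (log2 fold change 0.33, standard error 0.09, edgeR adjusted p = 0.0203). Reads on the opposite strand of the gene numbered 202, 398 and 511 in the control libraries against 81 and 67 after co-culture, or 15.4% to 34.2% of its reads in control against 6.25% and 6.02% in co-cultured cells. The antisense gene KDM4A-AS1 (chr1:43699765-43708138, minus strand) shares 464 exonic bases with KDM4A. Its counts were 354, 569 and 717 in the control libraries against 183 and 121 after co-culture, and it fell by 1.68 on the log2 scale (standard error 0.27, edgeR adjusted p = 0.00159). Counted without regard to strand, KDM4A had a log2 fold change of -0.05 (edgeR adjusted p = 0.701), so its rise is seen only with strand taken into account. It was called under 6 of 12 alternatives, and leaving out control replicate 2, control replicate 3 or either co-cultured replicate ended the call (edgeR adjusted p between 0.0542 and 0.158). A readthrough entry on the same strand, AL451062.3, covers 2077 of the 5172 exonic bases of KDM4A (40.2%) and had 0 counts in every library. These 0 counts do not show that reads over the shared bases were counted for KDM4A, which was not tested. If they were not, its counts and its level per kb below, which uses the full exon length, are too low.

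**Figure D2:**
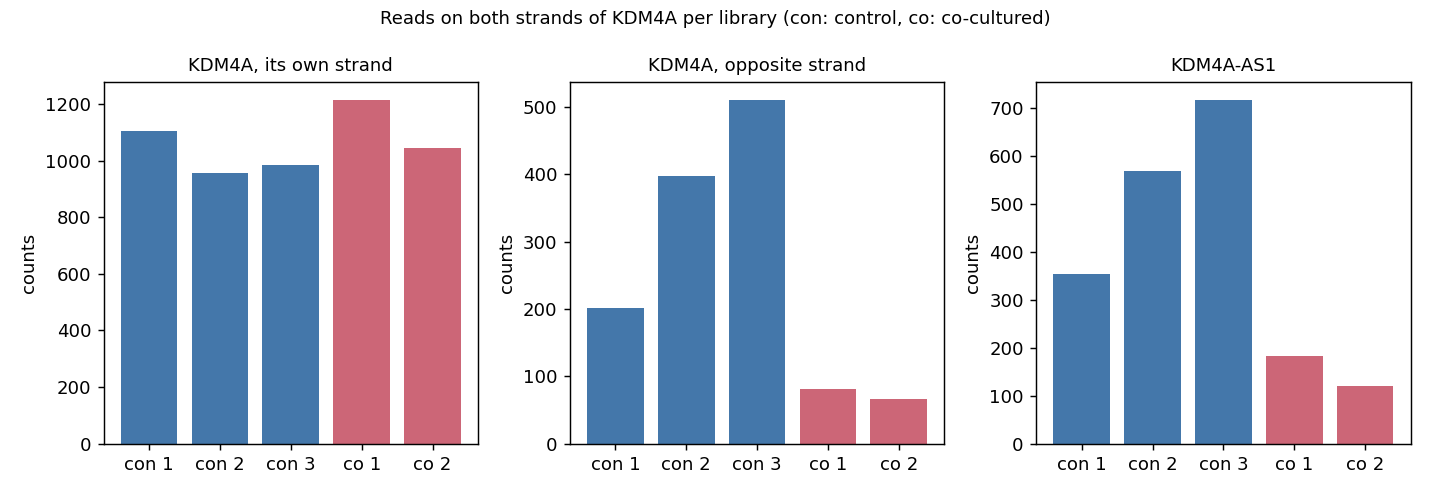
Counts per library (vertical axes, from 0, not scaled for depth) on the strand of KDM4A, on its opposite strand and on the antisense gene KDM4A-AS1, in control (con, blue) and co-cultured (co, red) libraries. The opposite-strand counts and KDM4A-AS1 are lower in both co-cultured libraries, while the counts of KDM4A itself are similar before scaling.

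KDM5A and KDM5B, which encode demethylases of H3K4, did not pass the test. KDM5B (JARID1B, PLU-1), associated with slow-cycling tumor cells, stood at 119, 144 and 162 CPM in control and at 223 and 159 CPM in co-cultured libraries. Co-cultured replicate 2 lay below control replicate 3, so the groups overlapped. Its log2 fold change was 0.43 (standard error 0.15, edgeR adjusted p = 0.0569), the same size as that of KDM4B with a wider error. It was past the threshold under 7 of 12 alternatives, DESeq2 among them (log2 fold change 0.44, DESeq2 adjusted p = 0.0276), and at 0.18 without co-cultured replicate 1 (edgeR adjusted p = 0.518). KDM5A (JARID1A, RBP2), named for its binding to the retinoblastoma protein, stood at 351, 326 and 327 CPM in control and at 306 and 303 CPM in co-cultured libraries. The groups did not overlap and the log2 fold change was -0.14 (standard error 0.08, edgeR adjusted p = 0.209). The start of KDM5A overlaps by 182 exonic bases with CCDC77 on the opposite strand, which averaged 46.3 ± 1.16 CPM (SD, n = 3) in control cells and 24.5 ± 2.77 CPM (SD, n = 2) after co-culture (log2 fold change -0.91, edgeR adjusted p = 0.000256). Under 1% of the reads of KDM5A lay on that strand.

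KDM2A and KDM2B are related enzymes for H3K36 that bind CpG islands through a zinc finger, and KDM2B brings a variant Polycomb complex to them. KDM2A stood at 129.7, 129.3 and 129.1 CPM in control, the tightest group of the 10 genes, and at 186 and 152 CPM in co-cultured libraries. Its difference was 1.31-fold (log2 fold change 0.39, standard error 0.09, edgeR adjusted p = 0.0118). Both co-cultured libraries were higher, by unequal amounts, and without replicate 1 of that group the log2 fold change was 0.24 (edgeR adjusted p = 0.164). KDM2B stood at 49.2, 47.1 and 49.3 CPM in control and at 52.2 and 51.6 CPM in co-cultured libraries. These ranges did not overlap, but the log2 fold change of 0.10 (standard error 0.08, edgeR adjusted p = 0.369) did not pass the test under any of the 12 alternatives. KDM2B also had 13.1% to 17.4% of its reads on the opposite strand, where RNF34 overlaps its end by 439 exonic bases. RNF34 had a log2 fold change of -0.24 (edgeR adjusted p = 0.0579).

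The promoters of 5 members are shown. They include the largest rises (KDM6B, KDM3A and KDM4C) and the gene called lower (KDM3B). KDM4B is shown as a well-known HIF target that holds ACGTG, 1 form of the core of the HIF site. Each window runs from 250 bases before to 50 bases after a start annotated by RefSeq on GRCh38.p14, 5′ to 3′ on the strand of the gene. For genes with several windows the first is given. The printed window of KDM6B lies upstream of the gene position given above. Its other window (chr17:7839667-7839966) spans the start of that position and held neither ACGTG nor GCGTG. Capitals mark ACGTG or its reverse complement CACGT, 1 form of the core bound by HIFs. The other form, GCGTG, is not marked. The palindrome CACGTG holds that core on both strands and so counts as 2 matches.
KDM6B (chr17:7833967-7834266, plus strand): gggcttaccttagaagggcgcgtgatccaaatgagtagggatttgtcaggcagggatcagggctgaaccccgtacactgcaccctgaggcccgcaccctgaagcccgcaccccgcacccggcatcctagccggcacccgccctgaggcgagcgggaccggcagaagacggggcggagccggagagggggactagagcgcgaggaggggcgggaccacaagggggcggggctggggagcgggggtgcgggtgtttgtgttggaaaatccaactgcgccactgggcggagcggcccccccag
KDM3A (chr2:86441121-86441420, plus strand): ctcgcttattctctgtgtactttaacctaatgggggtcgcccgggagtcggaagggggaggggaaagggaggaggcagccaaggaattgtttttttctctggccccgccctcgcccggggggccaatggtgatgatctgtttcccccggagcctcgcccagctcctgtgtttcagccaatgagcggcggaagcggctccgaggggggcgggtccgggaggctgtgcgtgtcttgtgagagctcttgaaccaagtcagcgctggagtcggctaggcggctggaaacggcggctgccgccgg
KDM4C (chr9:6757723-6758022, plus strand): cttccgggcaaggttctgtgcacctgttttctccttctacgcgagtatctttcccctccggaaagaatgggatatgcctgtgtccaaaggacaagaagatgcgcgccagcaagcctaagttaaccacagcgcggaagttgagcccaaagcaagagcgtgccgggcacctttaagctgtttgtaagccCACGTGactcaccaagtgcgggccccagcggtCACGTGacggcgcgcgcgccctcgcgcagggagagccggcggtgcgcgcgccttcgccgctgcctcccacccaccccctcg
KDM4B (chr19:4968863-4969162, plus strand): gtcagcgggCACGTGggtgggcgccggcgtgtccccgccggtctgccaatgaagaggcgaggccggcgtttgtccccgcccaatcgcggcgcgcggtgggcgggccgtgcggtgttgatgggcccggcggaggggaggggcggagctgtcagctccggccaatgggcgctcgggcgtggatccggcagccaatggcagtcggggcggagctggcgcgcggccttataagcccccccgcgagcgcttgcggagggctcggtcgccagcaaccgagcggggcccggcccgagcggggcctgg
KDM3B (chr5:138352435-138352734, plus strand): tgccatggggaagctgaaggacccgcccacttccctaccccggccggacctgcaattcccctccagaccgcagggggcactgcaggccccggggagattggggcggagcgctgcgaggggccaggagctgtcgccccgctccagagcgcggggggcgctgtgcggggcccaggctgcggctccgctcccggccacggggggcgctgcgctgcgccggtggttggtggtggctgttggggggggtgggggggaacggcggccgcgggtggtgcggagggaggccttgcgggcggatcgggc
KDM4C held CACGTG at 2 places shortly upstream of its start, and KDM4B held it once near the far end of the window. No ACGTG was present on either strand of the windows of KDM3A, KDM6B or KDM3B. Over all 16 windows of the 10 genes, ACGTG was found in 3 windows, of these 2 genes and KDM2B, and CACGTG in 2, while 21.4% and 7.26% of all 35116 windows of the same length held them. GCGTG, the other form of the core, was found in 12 of the 16 windows, some of which overlap, and in 36.5% of all windows. The printed windows of KDM6B, KDM3A and KDM4C each held 1 GCGTG match, that of KDM4B 2 and that of KDM3B 0. These matches describe letters in the windows and do not locate binding.

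Between genes, levels were compared per kilobase of merged exons. In control cells KDM5A was highest at 27.7 ± 1.20 CPM per kb, followed by KDM3B at 19.6 ± 1.18 and KDM6B at 15.6 ± 2.80 CPM per kb (SD, n = 3). These top genes did not overlap among the control libraries. KDM2A, KDM4A, KDM3A and KDM4B followed at means between 9.52 and 12.5 CPM per kb, with library ranges that overlapped between neighbours except for KDM2A and KDM4A, and KDM2A also overlapped KDM6B. KDM4C and KDM5B overlapped at 5.57 and 5.47 CPM per kb, and KDM2B was lowest at 3.56 ± 0.0894. In co-cultured cells KDM6B came first at 32.5 ± 3.79 CPM per kb (SD, n = 2), then KDM5A at 25.2 ± 0.159 and KDM3A at 18.2 ± 3.39, while KDM2B remained last at 3.81 ± 0.0315. KDM6B made up 10.7% to 14.2% of the summed CPM per kb of the 10 genes in control against 21.4% and 20.6% in co-cultured libraries. KDM5A made up at least 21.8% in every control library and 15.4% and 17.3% after co-culture. The order depends on the length used. Per kilobase of the longest protein-coding transcript, KDM5A kept rank 1 in control, KDM3A moved from rank 6 to 2, KDM4B from 7 to 3, KDM3B from 2 to 4 and KDM6B from 3 to 6. In co-cultured cells KDM3A then had rank 1, KDM6B rank 2, KDM4B rank 3 and KDM5A rank 4. KDM2B was last in both groups by either length.

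Ratios between related genes within a library need no scaling between libraries. The log2 ratio of KDM3A to KDM3B counts was -0.70, -0.01 and 0.15 in control against 1.07 and 0.66 in co-cultured libraries. KDM3B counts were thus above or near those of KDM3A in control and below them in both co-cultured libraries, a 2.08-fold difference of the ratio. KDM6B against KDM6A, the H3K27 demethylase of the same family encoded on the X chromosome, was at 0.41, 0.85 and 0.98 in control and at 1.94 and 1.63 in co-cultured libraries. That ratio differed 2.06-fold, without overlap. The log2 ratios of KDM2A to KDM2B and of KDM4C to KDM4A were higher in co-cultured libraries by 0.28 and 0.29, also without overlap. For KDM5B over KDM5A the difference was 0.56, and for KDM4B over KDM4A it was 0.10 with overlapping groups. With 3 libraries against 2, a two-sided exact permutation test cannot go below p = 0.1, which 4 of these 6 ratios reached (adjusted over the 6, p = 0.15). KDM5B over KDM5A had an exact p = 0.2 and KDM4B over KDM4A an exact p = 0.7.

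**Figure D3:**
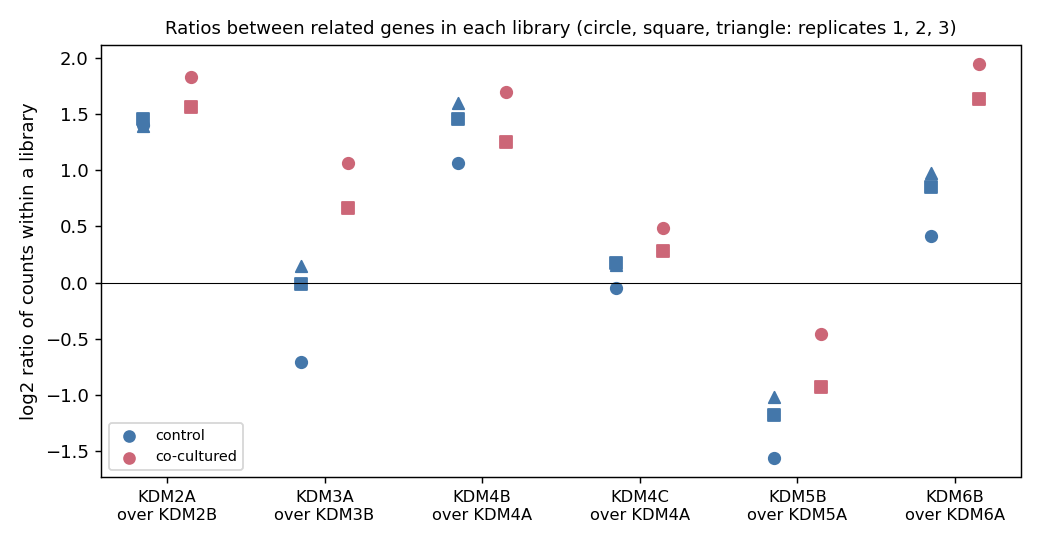
Log2 ratio of counts (vertical axis) between related JmjC genes within each library, control in blue and co-cultured in red, with the symbol giving the replicate and 0 marking equal counts. KDM3A over KDM3B lies between -0.70 and 0.15 in control and at 0.66 and 1.07 in co-cultured libraries, and KDM4B over KDM4A overlaps between the groups.

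The other JmjC proteins were counted for comparison. Of 20 listed, 19 were tested, 4 were higher, 2 lower and 13 not called, with a median log2 fold change of 0.05. JMJD6, a lysyl hydroxylase of splicing factors, rose from 22.9 ± 1.29 to 45.2 ± 8.13 CPM (log2 fold change 0.98, edgeR adjusted p = 0.000457). RIOX2, a ribosomal histidine hydroxylase, had a log2 fold change of 0.69 (edgeR adjusted p = 0.00413). PHF2, a demethylase of H3K9, rose by 0.43 (edgeR adjusted p = 0.00831) and its relatives PHF8 and KDM7A fell by 0.47 and 0.38 on the log2 scale (edgeR adjusted p = 0.00360 and 0.00967). On the opposite strand lay 7.71% to 16.6% of the reads of PHF2 in control, against 4.48% and 4.19% in co-cultured libraries. For RIOX2 that share was 26.3% to 35.0% over all libraries. The part of these reads in the changes was not tested. KDM5C, the H3K4 demethylase encoded on the X chromosome, rose by 0.27 (edgeR adjusted p = 0.0191), whereas its relatives KDM5A and KDM5B were not called. KDM6A, JMJD1C and JARID2 had log2 fold changes of 0.02, 0.07 and 0.12 and were not called. Of the flavin-dependent demethylases, which also use oxygen but neither iron nor 2-oxoglutarate, KDM1A (LSD1) fell by 0.32 (edgeR adjusted p = 0.00921) and KDM1B was at 0.11 (edgeR adjusted p = 0.331). Without co-cultured replicate 1, 2 of the other JmjC genes were called higher and 0 lower, and without co-cultured replicate 2 there was 1 in each direction. The call of KDM1A was lost without either of these libraries.

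**Figure D4:**
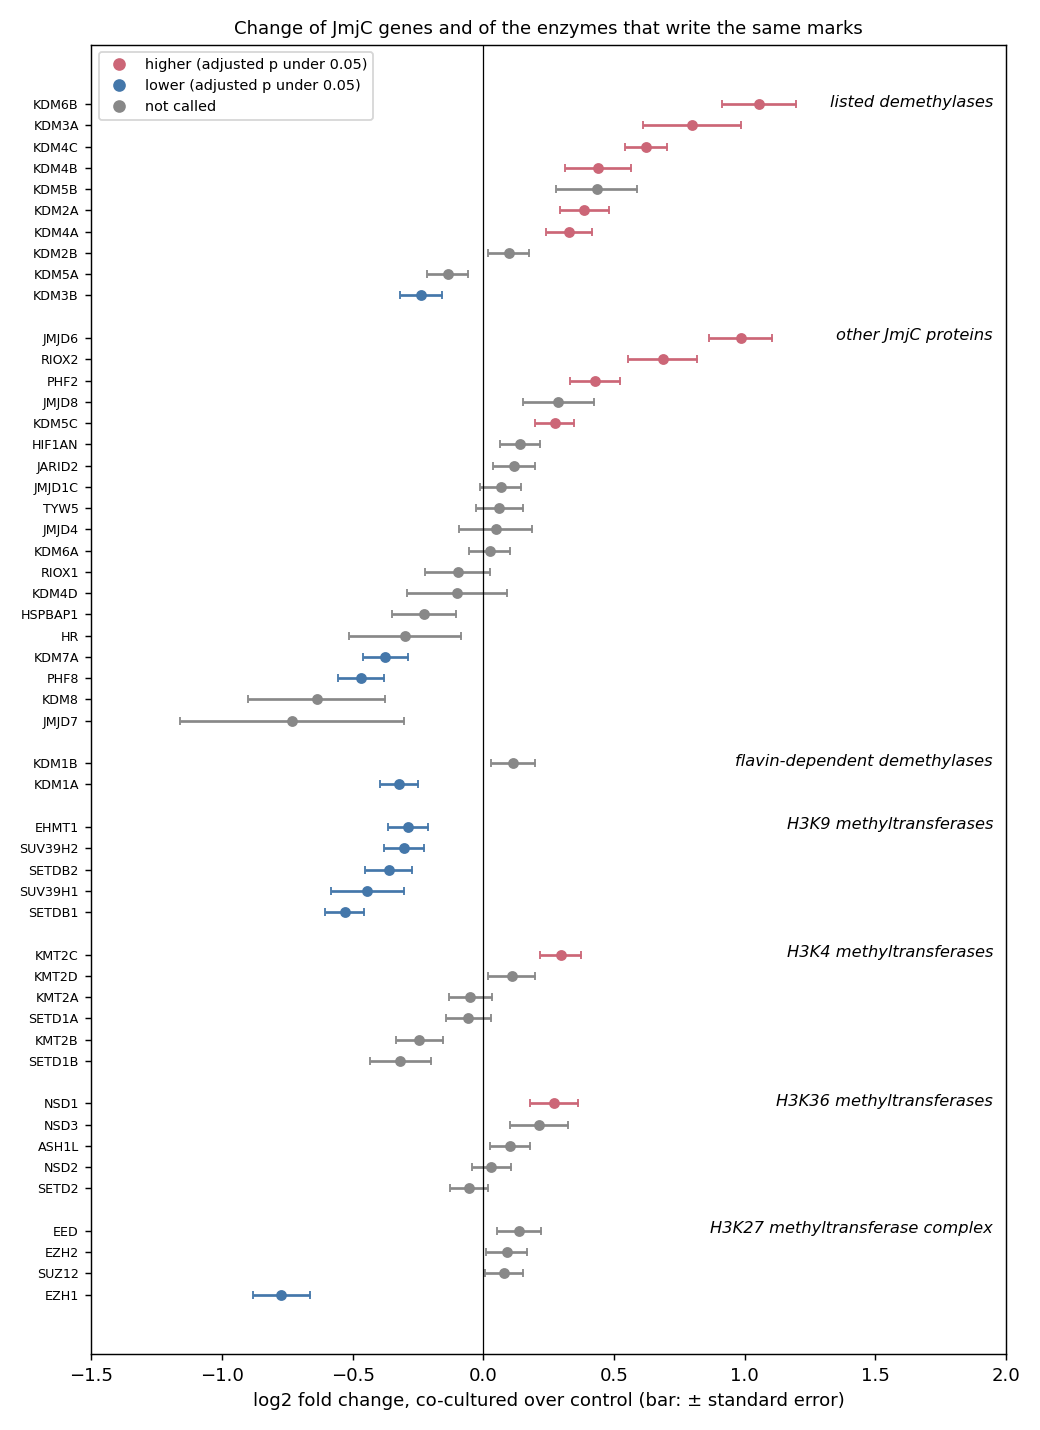
Log2 fold change, positive where co-cultured cells are higher (horizontal axis, bars ± standard error) for the 10 demethylases, the other JmjC proteins, the flavin-dependent demethylases and the methyltransferases of the same marks, red for genes called higher, blue for lower and grey for not called. For H3K27 the genes of the whole methyltransferase complex are shown. The 5 tested H3K9 methyltransferases all lie below 0, and 8 of the 10 demethylases lie above it.

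The enzymes that write the marks erased by these demethylases were set beside them. For H3K9, where 4 of 5 member genes rose, all 5 methyltransferases tested fell, with a median log2 fold change of -0.36. SETDB1, which silences retroelements, fell by 0.53 (edgeR adjusted p = 0.000947), and SUV39H1, SETDB2, SUV39H2 and EHMT1 had log2 fold changes of -0.44, -0.36, -0.30 and -0.29. EHMT2 was listed at 0 counts in every library and was not tested. It lies in the major histocompatibility (MHC) region of chromosome 6, of which the tables may hold other haplotype entries that share its reads, so the 0 cannot be read as no expression and the sum of H3K9 writers lacks this gene. Leaving out either co-cultured replicate reduced the 5 calls to 1, and leaving out control replicate 3 to 3. The summed CPM per kb of the 5 member genes for H3K9 was divided by that of these writers. The ratio was 1.24, 1.27 and 1.32 in control against 2.22 and 1.91 in co-cultured libraries. This sum does not hold every H3K9 demethylase. It leaves out PHF2, which rose, and its relatives PHF8 and KDM7A, which fell. For H3K27, KDM6B over the genes of the methyltransferase complex, EZH1, EZH2, EED and SUZ12, was at 0.149, 0.196 and 0.203 in control and at 0.394 and 0.344 in co-cultured libraries. KDM6A, which averaged 66.9 CPM in control and 68.0 CPM in co-cultured cells, is not in this ratio. Within that complex EZH1 fell by 0.77 (edgeR adjusted p = 0.000904) and the other 3 genes were not called.

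For H3K4, KDM5A and KDM5B over their writers were at 0.440, 0.424 and 0.469 in control and at 0.435 and 0.400 in co-cultured libraries, which overlapped. KDM5C, which rose, is not in this ratio. Of the 6 H3K4 methyltransferases only KMT2C was called (log2 fold change 0.30, edgeR adjusted p = 0.0187). For H3K36, KDM2A and KDM2B, without the KDM4 genes that share this mark, over their writers were at 0.204, 0.188 and 0.194 in control and at 0.240 and 0.206 in co-cultured libraries. With KDM4A, KDM4B and KDM4C added, a choice made after the data were seen, the ratio was 0.523, 0.493 and 0.502 in control cells and 0.644 and 0.570 after co-culture. Neither pair of groups overlapped. NSD1 was the only one of 5 H3K36 methyltransferases called (log2 fold change 0.27, edgeR adjusted p = 0.0474). Leaving out control replicate 3 or either co-cultured replicate ended the calls of both KMT2C and NSD1, and leaving out control replicate 2 that of NSD1. These ratios are of RNA, and neither protein nor histone marks were measured.

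**Figure D5:**
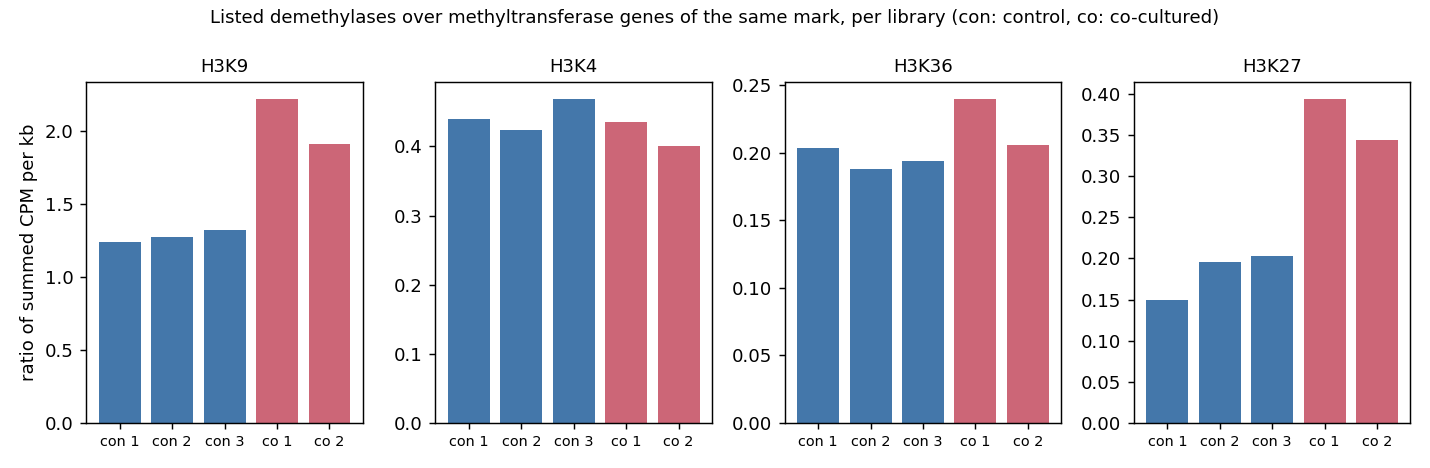
Summed CPM per kb of listed demethylases (KDM3 and KDM4 genes for H3K9, KDM5A and KDM5B for H3K4, KDM2A and KDM2B alone for H3K36, KDM6B for H3K27) divided by that of the methyltransferase genes of the same mark (vertical axes, from 0) in each control (con, blue) and co-cultured (co, red) library. For H3K27 the divisor is the whole methyltransferase complex, EZH1, EZH2, EED and SUZ12, and not its enzymes alone. The H3K9 ratio is 1.24 to 1.32 in control against 2.22 and 1.91 in co-cultured libraries, and the H3K4 ratio overlaps between the groups.

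Genes linked to the members by complex or substrate were counted next. Of 9 partners of KDM2B in its variant Polycomb complex, 8 were tested and 5 were higher, with a median log2 fold change of 0.38, although KDM2B itself was not called. They were BCOR at 0.65 (edgeR adjusted p = 0.000309), BCORL1 at 0.49, RNF2 at 0.48, USP7 at 0.29 and RYBP at 0.71, and RYBP rests on means of 2.99 and 4.89 CPM. RING1, also of the MHC region, was listed at 0 counts in every library, and this too cannot be read as no expression. The number of partners called higher was 2 without co-cultured replicate 1, and 3 without co-cultured replicate 2 or control replicate 3. Of 15 genes that make or use 2-oxoglutarate, or succinate, fumarate and 2-hydroxyglutarate, which inhibit JmjC enzymes, 5 were higher and 2 lower. FH, the fumarase that removes fumarate, rose from 66.0 ± 7.48 to 119 ± 3.08 CPM (log2 fold change 0.85, edgeR adjusted p = 0.000319). IDH1, which makes 2-oxoglutarate in the cytosol, rose by 0.80 (edgeR adjusted p = 0.000443), and IDH2, IDH3A and D2HGDH by 0.37, 0.40 and 0.31. SDHA, the subunit of succinate dehydrogenase that oxidizes succinate, fell by 0.39 (edgeR adjusted p = 0.00494), as did IDH3G. Without single libraries the number higher was 2 to 7 and the number lower 0 to 2.

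HIF target genes were higher in co-cultured cells, 19 of 20 with a median log2 fold change of 1.58, ANKRD37 being the exception. VEGFA, the endothelial growth factor, rose by 1.59 and DDIT4, an inhibitor of mTOR signaling, by 2.30 on the log2 scale (edgeR adjusted p = 4.05e-05 and 4.12e-05). Their summed level was 2537, 2989 and 3541 CPM in control and 9966 and 7510 CPM in co-cultured libraries. Control replicate 1 was thus lowest and control replicate 3 highest within control, and co-cultured replicate 1 lay above replicate 2. KDM3A, KDM4B and KDM6B placed the 5 libraries in that same order, as did 3.11% of all genes tested. That order puts both co-cultured libraries above every control library, so no gene that fell can hold it. The share among genes that rose alone was not counted, and 3.11% is therefore no measure for these 3 genes. Of the 20 HIF targets 17 had this order too, but their own sum set it. The other 7 demethylases did not. The 5 libraries share these samples and their depth, so this order is a description.

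The profile most like that of KDM6B was sought among 10593 genes with a mean of at least 10 CPM, by the root-mean-square (RMS) difference of log2 CPM centred on its mean over the 5 libraries. The nearest were DTNA, a component of the dystrophin complex (0.041), FAM131A (0.052), TNIK, a kinase of Wnt signaling (0.063), BNIP3L, a mitophagy receptor and one of the HIF targets above (0.071), and GRIA2, a glutamate receptor subunit (0.073). DTNA went from 58.4 to 118 CPM on average, where KDM6B went from 114 to 236 CPM. In all, 350 genes lay within 0.25 of KDM6B, so the likeness is shared by many.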

How the data were processed

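RNA-Seq libraries of NCI-H209 cells, rRNA-depleted and directional, were grouped by their titles into 3 control and 2 co-cultured samples. Nothing in the labels says that replicates were separate cultures, so p-values measure the spread between these samples, which may be technical. Per the submitters' processing notes, CASAVA 1.8, STAR 2.6.1b and DESeq2 were used with GRCh38. The authors deposited raw counts per gene in 3 columns, without strand and for each strand, and the column holding 92.3% to 93.1% of stranded counts was used. The authors' table of fold changes and p-values served only to pair identifiers with symbols. Gene models came from GENCODE 29.

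Genes were kept by filterByExpr, scaled by TMM and tested with edgeR 4.0.16 (R 4.3.3) by its quasi-likelihood test with Benjamini-Hochberg adjustment. The common dispersion was 0.0103. Standard errors are the log2 fold change over the square root of F. No 2 libraries of a group agreed within sampling noise (chi-square per degree of freedom 4.19 to 16.1). The steps were tested on simulated data. Alternatives were DESeq2 1.42.0, other scalings and filters, a replicate block, unstranded counts and each library left out. A gene length from the longest coding transcript and an H3K36 ratio with the KDM4 genes were added after the data were seen. All 10 members are named, and of each other list up to 5 called genes with the smallest p, fixed further JmjC genes, genes overlapping members and the 5 profiles most like KDM6B. VWF, FLT1, KDR, TEK, CHGA, EHMT2, RING1, KDM1B and ANKRD37 were named after their values were seen. The members and lists were chosen with earlier results of these data known. The values of 1 neuroendocrine marker are not reported here.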

Additional observations from a re-analysis of the deposited data

How the results depend on the processing

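Of the 10 demethylases, KDM4C and KDM6B kept their direction and call under all 12 alternatives, KDM2A and KDM3A under 11, KDM4B under 10, KDM4A under 6 and KDM3B under 3. KDM2B was called under none, KDM5A under 1 and KDM5B under 7. The cause of these changes was not tested. KDM4A reversed under unstranded counts (log2 fold change -0.052). The number of members called lower, 1 in the report, was 0 under DESeq2, median-ratio normalization, the filter of at least 1 count in any library, the replicate block and unstranded counts, and 2 under upper-quartile normalization, where KDM5A joined KDM3B. Upper-quartile scaling put the median log2 fold change of all genes at -0.11, against -0.03 under TMM and -0.02 under median-ratio scaling.

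Under DESeq2 the endothelial markers had 1 lower call and the neuroendocrine markers 2. Under upper-quartile normalization H3K4 methyltransferases had 0 higher and 2 lower calls, H3K36 methyltransferases 0 higher, KDM2B partners 3 higher and neuroendocrine markers 2 lower. With at least 1 count in any library, lower calls were 1 among H3K4 methyltransferases, 3 among endothelial markers and 2 among neuroendocrine markers. With at least 10 counts in every library, H3K4 methyltransferases had 2 lower calls, endothelial markers 0 higher and neuroendocrine markers 2 lower. Unstranded counts gave 2 lower endothelial and 0 lower neuroendocrine markers. With the longest coding transcript as length, ranks in control were 2 for KDM3A, 3 for KDM4B, 4 for KDM3B, 5 for KDM2A, 6 for KDM6B, 7 for KDM5B and 9 for KDM4A, and in co-cultured cells 1 for KDM3A, 2 for KDM6B, 3 for KDM4B, 4 for KDM5A, 6 for KDM3B, 7 for KDM4C, 8 for KDM5B and 9 for KDM4A. With the KDM4 genes added, the H3K36 ratio differed between groups by 0.101 in place of 0.0279.

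The labels do not say that replicate numbers mark a shared day or culture, and they were treated as names. Deviations of same-numbered libraries correlated at -0.33 and -0.19, over 2 shared numbers. The deviations of the 2 co-cultured libraries mirror each other, so these correlations cannot decide whether the numbers mark a batch. With a replicate block 6 members were called higher (KDM5B at 0.52 in, edgeR adjusted p = 0.0142, KDM4A at 0.28 out, edgeR adjusted p = 0.138) and 0 lower, and 2771 and 2053 of all genes were higher and lower. The block gave 0 lower flavin-dependent demethylases, 0 higher and 1 lower H3K4 methyltransferases, 1 lower H3K9 methyltransferase, 0 higher H3K36 methyltransferases, 3 higher KDM2B partners, 3 higher and 1 lower genes of 2-oxoglutarate metabolism, 3 lower endothelial and 2 lower neuroendocrine markers.

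Leaving out each library in turn, all genes called higher ran from 1749 to 5295 and lower from 985 to 4602, members higher from 2 to 7 and lower from 0 to 1. The lone library of a group is then assumed to vary like the others. Other JmjC proteins ran from 1 to 5 higher and 0 to 3 lower, flavin-dependent demethylases from 0 to 1 in each direction, H3K4 methyltransferases from 0 to 2 in each direction, H3K9 methyltransferases from 1 to 5 lower, H3K36 methyltransferases from 0 to 1 higher and KDM2B partners from 2 to 5 higher. Genes of 2-oxoglutarate metabolism ran from 2 to 7 higher and 0 to 2 lower, endothelial markers from 0 to 1 higher and 0 to 3 lower, and neuroendocrine markers from 0 to 2 lower. The log2 difference of KDM4B over KDM4A ran from -0.12 to 0.32 and reversed without control replicate 1 (-0.05) and without co-cultured replicate 1 (-0.12). HIF targets ran from 15 to 20 higher. Only 2 co-cultured libraries set the precision of these values.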
